A study of Homo sapiens with 6 samples.

Results

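The Notch pathway was described here through 10 genes, 3 receptors (NOTCH1, NOTCH2 and NOTCH3), 4 ligands (JAG1, JAG2, DLL1 and DLL3) and 3 transcription factors of the HES and HEY families (HES1, HEY1 and HES6). They were taken by gene symbol, and all 10 were found among 27852 genes listed. RNA-seq had been made from H69AR, a multidrug-resistant line derived from the small cell lung cancer (SCLC) line H69 by growth in rising doses of adriamycin. Cells were transfected with a control siRNA (siCtrl) or with siRNA #1 against TREX1 (siTREX1), a DNA exonuclease of the cytoplasm, and RNA was taken on day 3, with 3 libraries per group. There was 1 cell line, 1 siRNA and 1 time point. No source says whether the 3 libraries of a group were separate cultures, so the p-values reflect only how much these libraries vary, and that variation may be technical.

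Notch receptors are single-pass membrane proteins that are activated by ligands on a neighboring cell. Ligand binding exposes the receptor to ADAM metalloproteases and then to gamma-secretase, which releases the intracellular domain. That domain enters the nucleus, binds the DNA-binding protein RBPJ and turns on genes such as HES1 and HEY1, which encode repressors of the basic helix-loop-helix (bHLH) class. In SCLC, Notch signaling is known to oppose the neuroendocrine state, and neuroendocrine tumors often carry DLL3, a divergent ligand that inhibits Notch within the same cell. HES6 is a family member that, as shown mainly in mouse, opposes HES1.

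The promoter of HES1 is shown because HES1 is the textbook target of RBPJ and its mRNA was among those that rose. RefSeq places it on GRCh38.p14 at chr3:194135898-194136197, plus strand, from 250 bases before to 50 bases after the gene start. Capitals mark the RBPJ core GTGGGAA.
HES1: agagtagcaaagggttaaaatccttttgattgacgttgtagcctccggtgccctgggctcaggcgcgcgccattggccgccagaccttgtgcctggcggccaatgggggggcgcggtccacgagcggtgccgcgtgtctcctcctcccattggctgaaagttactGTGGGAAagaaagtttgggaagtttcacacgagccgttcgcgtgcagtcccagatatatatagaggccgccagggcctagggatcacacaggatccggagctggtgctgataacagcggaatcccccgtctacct

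The core began at position -85 relative to the RefSeq gene start. The promoters of HES5 and HES4, family members whose levels are given below, also held the core. They are shown on the strand of the gene, and the upstream HES5 match lies on the opposite strand and so reads TTCCCAC.
HES5 at chr1:2530313-2530369, minus strand, core at -81: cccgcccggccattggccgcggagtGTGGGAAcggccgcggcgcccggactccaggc
HES5 at chr1:2530456-2530512, minus strand, core at -224: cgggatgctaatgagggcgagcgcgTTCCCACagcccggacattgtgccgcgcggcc
HES4 at chr1:1000143-1000199, minus strand, core at -77: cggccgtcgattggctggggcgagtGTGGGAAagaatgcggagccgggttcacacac

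Of 35116 RefSeq promoters of the same length, 6.25% held GTGGGAA on either strand. Among the members with a promoter in the table, HES1 held 1 match, and NOTCH1, NOTCH2, NOTCH3, JAG1, JAG2 and HES6 held 0. In the rest of the family, HES5 and HEY2 held 2 matches each, HES4 and HEYL 1 each, and HES2, HES3 and HES7 held 0, as did the target NRARP. The HES1 window also held 4 matches to CACNAG, the N box that HES1 itself binds. On either strand, 38.0% of all windows held at least 1 match and 8.94% at least 2, and the share with 4 was not counted. These are matches of letters and not measured binding sites.

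The listed values are estimated counts that had been scaled to library depth and do not depend on transcript length, so that levels of different genes can be set side by side. They are given here as CPM, the count of a gene relative to the TMM-scaled total of its library. Library totals ran from 16329106 to 22482687. The table keeps 1 transcript per gene symbol, so that a gene can seem to change where its transcripts only trade places. The targeted gene was not lower in every library labelled siTREX1. TREX1 was at 22.7, 31.5 and 24.7 CPM with siCtrl and at 28.4, 16.02 and 18.2 CPM in the siTREX1-labelled replicates 1, 2 and 3 (log2 fold change -0.33, standard error (SE) 0.24, edgeR adjusted p = 0.349). Without siTREX1 replicate 1 the log2 fold change of TREX1 was -0.62 (edgeR adjusted p = 0.0499). That library was singled out by its own TREX1 level, so a lower value followed from the choice. Of 15 alternative settings, this was the only 1 in which TREX1 passed. The listed TREX1 transcript, ENST00000456089, is 1 of 6 coding ones and has 629 nt, against 1471 nt for the longest. The study also compared TREX1 in H69AR between control and TREX1 siRNAs by qPCR and immunoblotting, and calls such cells TREX1-depleted. Whether those were the cultures sequenced is not stated. Directions below are those of the siTREX1-labelled libraries relative to siCtrl.

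With siCtrl, HES6 had the highest level of the 10 members, and the order was HES6, JAG1, NOTCH3, HEY1, NOTCH2, HES1, JAG2, DLL3, NOTCH1 and DLL1. The means ran from 172.8 CPM for HES6 to 1.12 CPM for DLL1. Every neighboring pair in this order was apart over the 3 libraries except NOTCH1 and DLL1, whose ranges overlapped. In the siTREX1-labelled libraries the order was JAG1, HES6, HEY1, HES1, NOTCH2, NOTCH3, DLL3, JAG2, NOTCH1 and DLL1, and the ranges of DLL3 and JAG2, and of NOTCH1 and DLL1, overlapped. JAG1 thus stood above HES6, and HEY1 and HES1 above NOTCH2 and NOTCH3, where with siCtrl HES1 had been below them. The NOTCH1 level in both orders is that of a transcript without a coding sequence, so its place as a receptor mRNA cannot be read.

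Across the transcriptome, 33.3% of 13221 tested genes passed an adjusted p under 0.05 in edgeR's quasi-likelihood test, 17.8% higher and 15.5% lower. Of the 10 members, 3 rose, 4 fell and 3 were not called. The members had a median log2 fold change of -0.29, and all genes tested one of -0.02. In bulk RNA of this kind, fewer cells of a type and less RNA per cell cannot be told apart. The 2 groups did not overlap in CPM for 9 of the members, all but HES6, against 50.5% of all tested genes. The filter on low counts was passed in both groups by 8 members, and among these the test called 3 higher and 3 lower. NOTCH1 and DLL1 passed it only through siCtrl, where they were higher. They hold the lowest log2 fold changes of the 10 members (-2.92 and -2.93), and so lower the median above. Both are also among the 9 without overlap.

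**Figure D1:**
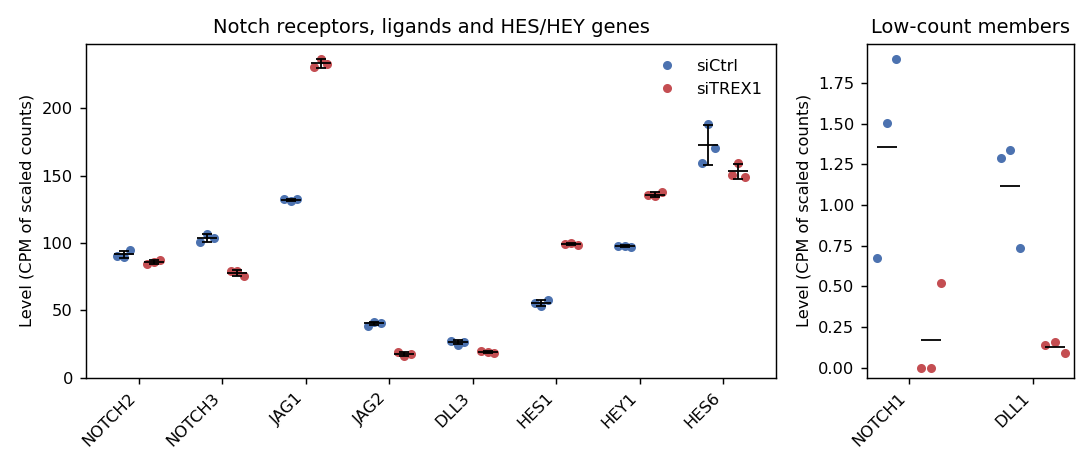
Level of each member in CPM of scaled counts (vertical axis, linear, 2 scales) in the 3 siCtrl and 3 siTREX1 libraries, with points for libraries, horizontal ticks for means and bars for the SD (no SD is drawn for the low-count members). JAG1 rose from a mean of 132 to 233 CPM and HES1 from 55.4 to 99.1 CPM, while JAG2 fell from 40.3 to 17.4 CPM.

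Among the receptors, NOTCH3 fell and NOTCH2 did not pass the test. NOTCH3, which in adults is best known from vascular smooth muscle, was at 101, 107 and 104 CPM with siCtrl and at 79.5, 79.0 and 75.5 CPM in the siTREX1-labelled libraries. All 3 of the latter were below all 3 of the former. The log2 fold change was -0.41 (SE 0.04, edgeR adjusted p = 0.000827). Its listed transcript, ENST00000263388, is the longest coding one of the gene, which lies on chromosome 19 of GRCh38 from 15159038 to 15200981 on the minus strand.

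NOTCH2, a receptor found in many tissues, was at 90.4, 89.5 and 94.7 CPM with siCtrl and at 84.5, 85.9 and 87.0 CPM in the siTREX1-labelled libraries. The groups did not overlap, but the gap was small, with a log2 fold change of -0.09 (SE 0.03) that did not pass edgeR's test (adjusted p = 0.0871, unadjusted p = 0.0350). NOTCH2 lies on chromosome 1 of GRCh38 from 119911553 to 120069626 on the minus strand, and its listed transcript, ENST00000256646, is also the longest coding one. In each siCtrl library NOTCH3 was above NOTCH2, at a ratio of 1.13 ± 0.0515 (SD, n = 3), and in each library labelled siTREX1 it was below, at 0.909 ± 0.0372 (SD, n = 3). The listed transcripts differ in GC content, 63.1% for NOTCH3 and 49.4% for NOTCH2. Whether the crossing holds without the trend with GC content described below was not tested.

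NOTCH1 could not be read as a receptor mRNA from this table. Its listed transcript, ENST00000494783, is a processed transcript of 652 nt without a coding sequence, whereas the coding transcript of the gene has 9306 nt, and the latter is not the one in the table. The listed transcript was at 0.673, 1.503 and 1.89 CPM with siCtrl and at 0, 0 and 0.523 CPM in the siTREX1-labelled libraries. Summed over libraries these were 78 and 9 estimated counts, a ratio of 8.22 (exact 95% binomial interval 4.11 to 18.6, which covers counting error only and treats scaled counts as if they were reads). The spread between libraries was wide, and the difference did not pass edgeR's test (adjusted p = 0.153). NOTCH1 lies on chromosome 9 of GRCh38 from 136494433 to 136545786. NOTCH4, the remaining receptor of the family, is listed by a transcript that is not in GENCODE 29. It was at 0.745 ± 0.0342 and 1.04 ± 0.194 CPM (SD, n = 3) and did not pass (edgeR adjusted p = 0.347).

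The ligands moved in opposite directions, with JAG1 higher and JAG2, DLL1 and DLL3 lower. JAG1 encodes Jagged 1, a ligand that activates Notch receptors from the adjacent cell. It was at 133, 131 and 133 CPM with siCtrl and at 230.3, 237 and 233 CPM in the siTREX1-labelled libraries. Libraries of a group lay within a few CPM of each other, far less than the distance between groups. The log2 fold change was 0.82 (SE 0.02, edgeR adjusted p = 2.65e-05), the lowest p of the 10 members. JAG1 lies on chromosome 20 of GRCh38 from 10637684 to 10673999 on the minus strand, and ENST00000254958 is its longest coding transcript.

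JAG2, which encodes the related ligand Jagged 2, was at 38.7, 41.2 and 40.9 CPM with siCtrl and at 18.8, 16.02 and 17.3 CPM in the siTREX1-labelled libraries. Its groups were well apart, with a log2 fold change of -1.21 (SE 0.07, edgeR adjusted p = 0.000203). JAG2 lies on chromosome 14 of GRCh38 from 105140981 to 105168824 on the minus strand. Within a library, JAG1 stood at 3.29 ± 0.126 times (SD, n = 3) the level of JAG2 with siCtrl and at 13.5 ± 1.26 times (SD, n = 3) in the siTREX1-labelled libraries.

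DLL3, the inhibitory ligand, was at 27.5, 24.6 and 26.7 CPM with siCtrl and at 20.2, 19.1 and 18.7 CPM in the siTREX1-labelled libraries, without overlap. Its log2 fold change was -0.44 (SE 0.07, edgeR adjusted p = 0.00401). The transcript listed, ENST00000356433, has 2055 nt, is 1 of 3 coding transcripts and has a GC content of 67.3%. When the trend of counts with GC content was taken out (a step added with the data already seen), DLL3 stood at -0.24 on the log2 scale and its call ended (edgeR adjusted p = 0.0593). DLL3 lies on chromosome 19 of GRCh38 from 39498895 to 39508481 on the plus strand.

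DLL1, a delta ligand that activates Notch, was close to the limit of detection. It was at 1.29, 1.34 and 0.734 CPM with siCtrl and at 0.143, 0.160 and 0.0912 CPM in the siTREX1-labelled libraries. The latter libraries held 8 estimated counts in all, against 66 with siCtrl, a ratio of 7.82 (exact 95% binomial interval 3.75 to 18.9, with the same limits as for NOTCH1). The difference passed edgeR's test (log2 fold change -2.93, SE 0.49, adjusted p = 0.00614), and at least 10 counts in every library would leave DLL1 untested. DLL4, another delta ligand, was at 0.553 ± 0.176 and 0.377 ± 0.253 CPM (SD, n = 3) and did not pass (edgeR adjusted p = 0.524).

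Of the transcription factors, HES1 and HEY1 rose and HES6 did not pass the test. HES1, the bHLH repressor whose promoter is shown above, was at 55.2, 53.3 and 57.6 CPM with siCtrl and at 99.2, 99.95 and 98.2 CPM in the siTREX1-labelled libraries. The groups were apart by many times the spread within either. The log2 fold change was 0.84 (SE 0.04, edgeR adjusted p = 0.000103). The listed transcript, ENST00000232424, is the only coding transcript of the gene, which lies on chromosome 3 of GRCh38 from 194136145 to 194138732.

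HEY1, a repressor of the related HEY family, was at 98.1, 98.0 and 97.3 CPM with siCtrl and at 136, 135 and 138 CPM in the siTREX1-labelled libraries. This was a smaller step than that of HES1 but as clear of the replicate spread, with a log2 fold change of 0.48 (SE 0.03, edgeR adjusted p = 0.000152). The level of HES1 relative to HEY1 went from 0.567 ± 0.0239 (SD, n = 3) to 0.729 ± 0.0153 (SD, n = 3).

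HES6 was at 159, 189 and 171 CPM with siCtrl and at 151, 159.7 and 149 CPM in the siTREX1-labelled libraries, and the groups overlapped. The log2 fold change was -0.17 (SE 0.07, edgeR adjusted p = 0.0942). Its direction rests on the treatment of GC content, since the listed transcript has 68.4% GC and the log2 fold change was 0.06 (edgeR adjusted p = 0.404) once the GC trend was taken out. HES6 lies on chromosome 2, GRCh38, from 238238267 to 238240662 on the minus strand. The ratio of HES1 to HES6 within a library was 0.322 ± 0.0347 (SD, n = 3) with siCtrl, against 0.648 ± 0.0190 (SD, n = 3) in the siTREX1-labelled libraries, and the lowest of the latter (0.626) was above the highest of the former (0.347).

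Summed by class, the receptors were at 197 ± 4.54 CPM (SD, n = 3) with siCtrl, against 164 ± 0.893 CPM (SD, n = 3) in the siTREX1-labelled libraries. NOTCH1 enters the receptor sum only through its listed transcript without a coding sequence, so the sum leaves out its coding mRNA. The 4 ligands were at 199.8 ± 1.27 and 270.2 ± 1.62 CPM (SD, n = 3), and the 3 transcription factors at 326 ± 13.7 and 388 ± 5.19 CPM (SD, n = 3). JAG1 made up 66.1% ± 0.127 (SD, n = 3) of the ligand sum with siCtrl and 86.4% ± 0.796 (SD, n = 3) in the siTREX1-labelled libraries. The share of JAG2 was 20.1% ± 0.738 and 6.43% ± 0.544, and that of DLL3 13.2% ± 0.686 and 7.16% ± 0.295 (SD, n = 3 each). HES6 held 53.0% ± 2.32 of the transcription factor sum with siCtrl and 39.4% ± 0.948 in the siTREX1-labelled libraries (SD, n = 3 each). These shares follow from the levels above and carry no test of their own.

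**Figure D2:**
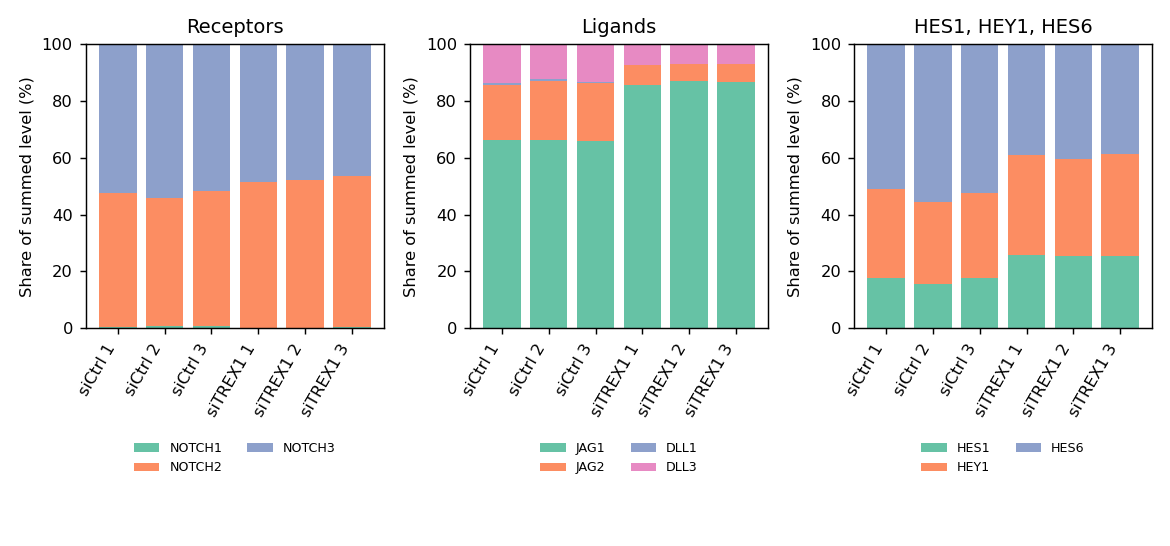
Share of each member in the summed level of its class (vertical axis, percent) in each of the 6 libraries (horizontal axis), for receptors, ligands and the HES and HEY genes. JAG1 takes about 66.1% of the ligand sum in siCtrl and 86.4% in the siTREX1 libraries. NOTCH2 and NOTCH3 take nearly all of the receptor sum as listed in every library. NOTCH1 enters that sum only through a transcript without a coding sequence, so its share as a receptor mRNA cannot be read.

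Transcripts rich in G and C were lower in the siTREX1-labelled libraries as a whole, and the members differ in GC content. Tested genes under 45% GC, 4285 in number, had a median log2 fold change of 0.06, and the 663 above 65% GC one of -0.25. The 3 members that rose had 47.4% to 49.9% GC, whereas NOTCH3, JAG2 and DLL3 had 63.1% to 67.3%. After removal of the trend the log2 fold change was 0.78 for JAG1, 0.80 for HES1, 0.43 for HEY1, -0.27 for NOTCH3, -1.05 for JAG2 and -2.87 for DLL1, each still past edgeR's test (adjusted p at most 0.00625). NOTCH2, at 49.4% GC, then passed in the lower direction (-0.13, adjusted p = 0.0219). The orders of levels, the ratios between members and the class sums and shares above were taken without this removal.

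**Figure D3:**
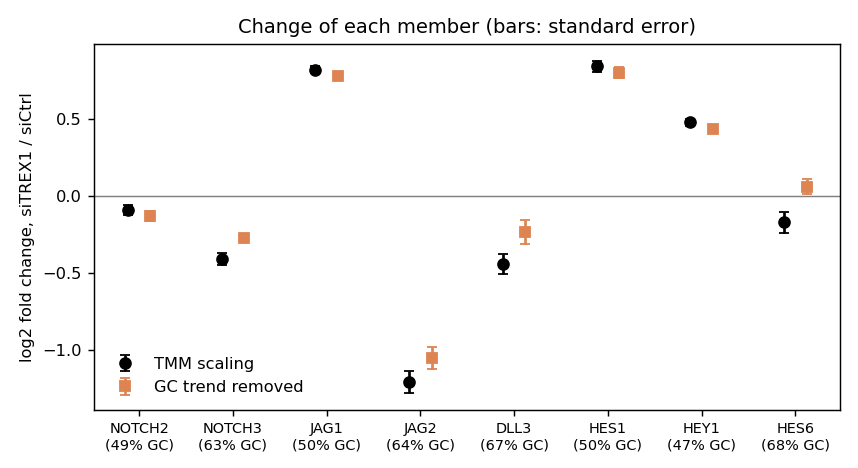
Log2 fold change of siTREX1 relative to siCtrl (vertical axis, bars are standard errors) for the 8 members above the low-count range, with TMM scaling (circles) and after removal of a GC trend (squares), and the GC content of the listed transcript in brackets. JAG1, HES1 and HEY1 stay above 0 and NOTCH3 and JAG2 below 0 in both, DLL3 moves from -0.44 to -0.24 and HES6 crosses 0.

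Leaving out siTREX1 replicate 1, in which TREX1 was not lower, ended none of the 7 calls among the members. Without it, the log2 fold change was 0.83 for JAG1, 0.84 for HES1, 0.48 for HEY1, -0.42 for NOTCH3, -1.27 for JAG2, -0.47 for DLL3 and -2.93 for DLL1, all past edgeR's test (adjusted p at most 0.0324).

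Further genes of the pathway were read through 9 lists ordered by role, which together hold 67 genes, 66 of them tested. By edgeR's test 12 rose (18.2%, against 17.8% of all genes tested), 13 fell (19.7%, against 15.5%) and 41 were not called. Their median log2 fold change, -0.04, was close to that of all genes tested.

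Of 7 genes for the handling of ligands inside the signal-sending cell, 3 were lower, where 15.5% of all genes tested were, and 0 were higher (by edgeR, DESeq2 and limma-voom alike, and at an unadjusted p under 0.05 in edgeR). MIB1 and NEURL1B, ubiquitin ligases that mark ligands for endocytosis, had log2 fold changes of -0.49 (SE 0.07, edgeR adjusted p = 0.00357) and -0.56 (SE 0.04, adjusted p = 0.000483). EPN2, an epsin of clathrin-mediated endocytosis, was at -0.54 (adjusted p = 0.00148). The 5 tested genes of the list of other receptors and ligands, among them DLK1 and DLK2, which lack the domain of canonical ligands, did not pass in edgeR, DESeq2 or limma-voom, and 2 of them, DLK1 (-0.65) and DLK2 (-0.32), had an unadjusted p under 0.05 in edgeR.

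Of 5 enzymes that put sugars on the receptor, the test called 2 higher and 1 lower (17.8% and 15.5% of all genes tested). POFUT1 and POGLUT1, which add O-fucose and O-glucose to the EGF repeats, rose by log2 fold changes of 0.37 (edgeR adjusted p = 0.00110) and 0.76 (adjusted p = 0.00140). LFNG, a fringe enzyme that extends the fucose and shifts the response from Jagged to Delta ligands, fell from 8.48 ± 0.877 to 4.02 ± 0.520 CPM (SD, n = 3), a log2 fold change of -1.08 (SE 0.15, edgeR adjusted p = 0.00328). MFNG, another fringe enzyme, was at -1.12 (SE 0.39) and did not pass (adjusted p = 0.0685).

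Among the genes of receptor cleavage, FURIN, the protease that cuts the receptor on its way to the surface, was lower, with a log2 fold change of -0.63 (SE 0.05, edgeR adjusted p = 0.000421).

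In the nuclear complex 4 of 7 genes were higher and 1 was lower, where 17.8% and 15.5% of all genes tested were. RBPJ, its DNA-binding subunit, was at 62.6 ± 0.602 and 66.3 ± 2.20 CPM (SD, n = 3) and did not pass (log2 fold change 0.08, edgeR adjusted p = 0.143). The coactivator MAML1 rose by a log2 fold change of 0.41 (edgeR adjusted p = 0.000996), and the acetyltransferases EP300 and CREBBP rose by 0.63 (adjusted p = 0.000617) and 0.74 (adjusted p = 0.00396). The related coactivator MAML3 was lower, at -0.64 (adjusted p = 0.00444), and SNW1, a cofactor of the complex, was the remaining higher one, at 0.19 (adjusted p = 0.00801).

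Among 11 corepressors 2 were higher and 3 lower (17.8% and 15.5% of all genes tested). SPEN, which represses through RBPJ, and TLE1, a Groucho protein that HES factors recruit, had log2 fold changes of 0.42 (edgeR adjusted p = 0.000564) and 0.37 (adjusted p = 0.00121). TLE3 and TLE2, of the same Groucho family, were at -1.17 (adjusted p = 0.0112) and -0.26 (adjusted p = 0.0151). The call of TLE2 ended without siCtrl replicate 2 (adjusted p = 0.0508) or 3 (adjusted p = 0.0554) and with the GC trend removed (adjusted p = 0.102). CTBP2, the other lower one, was at -0.18 (edgeR adjusted p = 0.0385), and its call ended when any 1 library was left out (adjusted p = 0.0661 to 0.110). Of 11 negative regulators of the receptor, ITCH, a ubiquitin ligase, was the only one called, where 33.3% of all genes tested were. Its log2 fold change was 0.31 (edgeR adjusted p = 0.00965).

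The rest of the HES and HEY family was split, with 1 of 7 higher and 2 lower (17.8% and 15.5% of all genes tested). HES5, a Notch target of neural progenitors, was at 46.4, 47.0 and 39.5 CPM with siCtrl and at 72.9, 68.9 and 64.98 CPM in the siTREX1-labelled libraries, a log2 fold change of 0.64 (SE 0.08, edgeR adjusted p = 0.00229). It thus went the way of HES1 and HEY1. HES7, which in mouse drives the segmentation clock, was at 10.8, 12.2 and 9.78 CPM with siCtrl and at 0.839, 2.38 and 1.75 CPM in the siTREX1-labelled libraries, a log2 fold change of -2.72 (SE 0.35, edgeR adjusted p = 0.00238). Its listed transcript, ENST00000577735, has 654 nt, against 1674 nt for the longest coding one. HES2 was at 3.07, 3.52 and 3.55 CPM and at 0.661, 0.520 and 0.578 CPM, a log2 fold change of -2.46 (SE 0.25, edgeR adjusted p = 0.00107). HES4 was at 70.5 ± 5.32 and 54.2 ± 8.79 CPM (SD, n = 3), a log2 fold change of -0.38 that did not pass (edgeR adjusted p = 0.0611). It passed in DESeq2 (adjusted p = 0.00517), with at least 10 counts in every library (edgeR adjusted p = 0.0448), with a replicate block (adjusted p = 0.0310) and without siTREX1 replicate 2 (-0.47, adjusted p = 0.0477). With the GC trend removed, HES4, whose listed transcript has 74.0% GC, was at -0.06 (edgeR adjusted p = 0.614), and HES5, at 66.2% GC, was at 0.83 (adjusted p = 0.000731). HEY2, HEYL and HES3 were at most at 1.58 CPM in any library and did not pass.

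Of the genes whose promoter window held the RBPJ core, HES1 and HES5 were higher, and HES4 (-0.38), HEY2 (0.81) and HEYL (-0.47) did not pass. Of those without it, JAG1 was higher, NOTCH3, JAG2, HES2 and HES7 were lower, and NOTCH1, NOTCH2, HES6, HES3 and NRARP did not pass. No promoter was available for HEY1, which rose, or for DLL1 and DLL3, which fell, so these were not scanned. Among the scanned genes, those with and without the core were both found among those that rose, the latter through JAG1 alone.

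Among 6 other common targets the test called 1 higher and 2 lower (17.8% and 15.5% of all genes tested). NRARP, a feedback inhibitor that Notch induces, was at 66.2 ± 2.88 and 71.0 ± 2.59 CPM (SD, n = 3), a log2 fold change of 0.10 (edgeR adjusted p = 0.159). The cell cycle genes CCND1 and CDKN1A were both lower, each at a log2 fold change near that of the other, -0.32 (edgeR adjusted p = 0.00515) and -0.31 (adjusted p = 0.0114). MYC, a growth-promoting transcription factor, had few counts with siCtrl, 10 over the 3 libraries, against 209 in the siTREX1-labelled libraries (0.159 ± 0.179 and 3.75 ± 0.702 CPM, SD, n = 3, edgeR adjusted p = 0.00784). It passed the filter on low counts only through the siTREX1-labelled libraries.

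**Figure D4:**
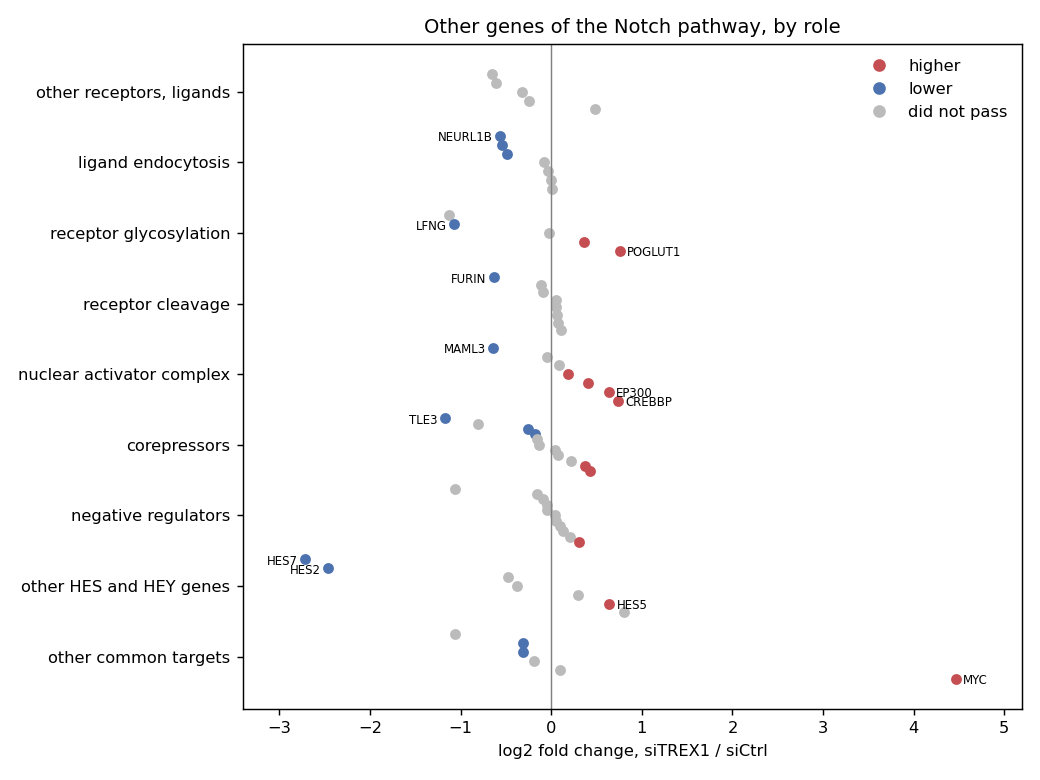
Log2 fold change of siTREX1 relative to siCtrl (horizontal axis) for the tested genes of the 9 lists, except 1 that is not reported here (vertical axis, 1 point per gene and list, points of a list spread vertically). Red points were higher and blue points lower at an adjusted p under 0.05 in edgeR, and gray points did not pass. HES7 (-2.72) and HES2 (-2.46) lie far to the left and MYC far to the right.

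The cell state was read through neuroendocrine genes, since Notch is known to act on them in SCLC. NEUROD1, a transcription factor that defines a neuroendocrine class of SCLC, was at 0.0341 CPM with siCtrl, too low to test. Of 17 neuroendocrine genes 10 were under 1 CPM with siCtrl, and 3 were at 0 in all 6 libraries. The remaining 7 were tested, and UCHL1, a ubiquitin hydrolase of neurons and neuroendocrine cells, was the highest, at 657 CPM with siCtrl and 673 CPM in the siTREX1-labelled libraries. ENO2, the neuronal enolase, was at 47.6 and 44.4 CPM, CHGB at 5.89 and 5.51 CPM and SYT1 at 7.14 and 6.17 CPM, and like UCHL1 they did not pass (edgeR adjusted p at least 0.130). The study describes H69AR as a derivative that is not neuroendocrine. INSM1, another neuroendocrine factor, was at 15.3 ± 1.62 and 13.1 ± 0.631 CPM (SD, n = 3) and did not pass (edgeR adjusted p = 0.145). Among the 7 only SCG2, a granin of secretory vesicles, passed, with a log2 fold change of 0.84 (edgeR adjusted p = 5.10e-05). REST, a repressor of neuronal genes that Notch can induce in SCLC, was lower at -0.25 (edgeR adjusted p = 0.0380), a call that ended when any 1 library was left out (adjusted p = 0.0538 to 0.110). It belongs to a list of 8 non-neuroendocrine genes, all tested, of which 3 were higher and 1 was lower (17.8% and 15.5% of all genes tested). Higher were WWTR1, which encodes the transcriptional coactivator TAZ, at 0.50 (edgeR adjusted p = 0.00222), CAV1, a protein of caveolae, at 0.48 (adjusted p = 0.000796), and ANXA1, an annexin, at 0.16 (adjusted p = 0.00415). The call of ANXA1 ended with the GC trend removed (0.08, edgeR adjusted p = 0.0920). YAP1, the coactivator related to TAZ, was at 0.08 (edgeR adjusted p = 0.469) and did not pass.

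Markers of immune, fibroblast and endothelial cells were low. The 5 immune markers summed to 2.13 to 2.74 CPM with siCtrl and 1.88 to 2.92 CPM in the siTREX1-labelled libraries, and the 6 fibroblast and endothelial markers to 1.61 to 4.86 and 2.08 to 2.69 CPM. The epithelial list summed to 176.7 to 186 CPM with siCtrl and 131 to 145 CPM in the siTREX1-labelled libraries, nearly all of it from the keratins KRT8 and KRT18. Both were lower, KRT8 at -0.25 (edgeR adjusted p = 0.00934) and KRT18 at -0.59 (adjusted p = 0.00110). KRT19 was at 0 in all 6 libraries. CDH1 was also listed at 0, but its listed transcript, ENST00000565810, is a retained intron of 282 nt, so that the level of the CDH1 mRNA cannot be read from it. The markers LUM, PECAM1, EPCAM, DDC and CD44 are likewise listed by a transcript that GENCODE does not class as protein coding. The part of such shifts in the Notch genes was not tested.

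JAG1 had the lowest p of the members, and the genes closest to it in pattern were sought among 11272 other genes whose log2 CPM averaged 1 or more. Likeness was the Euclidean distance between log2 CPM values centered on their mean over the 6 libraries. The closest were ERRFI1, a feedback inhibitor of the EGF receptor, at a distance of 0.05, and CHPF2 and EPC2, at 0.06 each. This distance takes in the gap between the groups, so log2 fold changes close to that of JAG1 follow from the choice. Those of ERRFI1, CHPF2 and EPC2 were 0.80, 0.84 and 0.83, and that of JAG1 was 0.82.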

How the data were processed

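RNA-seq of H69AR cells, 3 siCtrl and 3 siTREX1 libraries, was used. The authors quantified transcripts with kallisto and deposited estimated counts from tximport (scaledTPM option), for 1 transcript per gene symbol. FastQC and the build hg19 also appear in the submitters' processing notes. The kallisto version is not given in the sources used here. One line without a gene symbol (0.0925% to 0.109% of counts) was left out. Estimated counts were rounded and tested across all genes with edgeR 4.0.16 (R 4.3.3), by its quasi-likelihood test with robust dispersions, TMM factors, a low-count filter (filterByExpr, minimum count 10) and no replicate block, with Benjamini-Hochberg adjustment over 13221 genes. Standard errors were derived from the fold change and the F statistic. The script was tested on simulated counts. Alternatives used RLE factors, library totals alone, other filters, DESeq2 1.42.0, limma-voom (limma 3.58.1), a replicate block, a non-robust fit, each library left out, and, added after the data were seen, removal of a GC trend. Transcript annotation came from GENCODE 29 on GRCh38, which held 99.2% of listed transcripts, and promoters from RefSeq (GRCh38.p14), with no conversion between builds. Figures were drawn in Python 3.11.15. The members and lists were chosen with earlier results of these data known. Beyond the members and TREX1, the genes named were up to 4 called genes per list with the lowest p, genes named in any case (RBPJ, MAML1, NEUROD1, REST and YAP1) and the 3 genes nearest to the called member with the lowest p. Others named were added after their values were seen. Some listed genes are not reported here.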

Additional observations from a re-analysis of the deposited data

How the results depend on the processing

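JAG1, HES1, HEY1, NOTCH3 and JAG2 kept their direction and passed the test under all 15 alternatives, and DLL3 under 14 of 15. DLL1 passed under the 14 in which it was tested. However, DLL1 passed the low-count filter of the main test only through siCtrl, where it was higher. The setting with at least 10 counts in every library left it untested. Over the left-out libraries the log2 fold change ran from 0.81 to 0.83 for JAG1, 0.81 to 0.87 for HES1, 0.47 to 0.49 for HEY1, -0.43 to -0.39 for NOTCH3, -1.27 to -1.15 for JAG2, -0.49 to -0.41 for DLL3 and -3.16 to -2.78 for DLL1. It ran from -0.23 to -0.11 for HES6, which passed once siCtrl replicate 1 was left out (edgeR adjusted p = 0.0435), and from -7.74 to -2.30 for NOTCH1, which passed without siTREX1 replicate 3 (adjusted p = 0.0186 from edgeR), where the remaining libraries of that group are at 0 and the fitted value depends on the prior count. HES6 also passed in DESeq2 (-0.17, adjusted p = 0.0255). With the GC trend removed, DLL3 no longer passed (-0.24) and NOTCH2 did (-0.13). With the replicate number as a block, 3 members were higher and 4 lower, and 3419 genes passed against 4398 without it. The block ended the calls of TLE2 (edgeR adjusted p = 0.0519), CTBP2 (0.0826) and REST (0.0911). Same-numbered libraries barely deviated together (correlations 0.01, 0.03 and 0.03 over 11430 genes, against -0.036 to 0.006 for differently numbered ones). The labels do not say what a replicate number marks, so the numbers were not taken as pairs. Depth limits NOTCH1, DLL1, DLL4 and MYC, and a single listed transcript limits NOTCH1 and HES7. On library totals alone, mean levels with siCtrl were 131 CPM for JAG1 and 97.1 CPM for HEY1.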
